A study of Homo sapiens with 2 samples.

Results

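The genes described here are the G1 cyclins CCND1, CCND2, CCND3, CCNE1 and CCNE2, the kinases CDK4, CDK6 and CDK2 that these cyclins switch on, the phosphatase CDC25A and the retinoblastoma gene RB1, 10 genes in all. They were chosen by function, with earlier results of these data known. Every non-control probe on the array whose RefSeq accession belongs to one of them was taken, which gave 11 probes. A probe was counted as measured when the flags of the scanner software put most of its spots well above background in both dyes of both arrays. All 11 probes passed, so that the set comprised 10 of 14050 genes with a measured probe.

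RNA came from RWPE-1, a noncancerous human prostate epithelial cell line, that had received either pre-miR-424, an artificial precursor of miR-424, at 30 nM or the same dose of a control precursor (Negative control #1). Both RNAs were amplified, labelled with Cy5 or Cy3 and hybridised together to a whole-genome oligonucleotide array, once with pre-miR-424 RNA in Cy5 (normal labelling) and once with the dyes exchanged (dye swap). According to the labels the 2 arrays are technical replicates, and they count as 1 replicate so that no p-value can be computed. The spread between them covers labelling and hybridisation error, but not the variation between transfections. The time between transfection and RNA extraction is not given in the sources used here.

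RWPE-1 cells grow as a single established line that was immortalised with a human papillomavirus, whose oncoproteins bind the RB protein and p53. All 5 markers of basal prostate epithelium (KRT5, KRT14, KRT15, TP63 and ITGB4) and all 5 general epithelial markers were measured. Of the luminal markers, KLK2 was measured, and KLK3 and TMPRSS2 were not. Of 11 stromal, endothelial and leukocyte markers, 6 were also measured, and none of the measured markers named here or of these types differed by 1.5-fold on both arrays. Below that threshold, the mean log2 ratios of pre-miR-424 over control ranged from −0.5 to 0.04 among the basal markers. Among the general epithelial markers they ranged from −0.2 to 0.09. Median spot signals were between 165 and 314, over backgrounds between 28 and 70, and no spot was saturated.

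A cell leaves G1 when cyclin-dependent kinases phosphorylate RB, the protein that holds the E2F transcription factors inactive. The D cyclins, which respond to growth signals, activate CDK4 and CDK6 first, and the E cyclins then activate CDK2, after CDC25A has removed inhibitory phosphates from it. A microRNA lowers its target mRNAs by pairing of its seed, the stretch from base 2 to base 8, with sites mostly in their 3′ untranslated regions. The family of miR-15, miR-16 and miR-424 is best known for targeting G1 cyclins, and CCND1, CCND3, CCNE1, CDK6 and CDC25A have been described as its targets.

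The sequence introduced by the transfection is shown with the other human microRNAs that share its seed, because the shared 7 bases are the reason why the family is treated as one. In RefSeq (GRCh38.p14), 7 of 2370 mature microRNAs carry the same bases 2 to 8, which are printed in capitals, 5′ to 3′.

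hsa-miR-424-5p: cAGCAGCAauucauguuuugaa
hsa-miR-15a-5p: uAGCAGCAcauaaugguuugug
hsa-miR-15b-5p: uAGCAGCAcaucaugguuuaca
hsa-miR-16-5p: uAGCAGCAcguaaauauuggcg
hsa-miR-195-5p: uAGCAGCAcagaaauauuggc
hsa-miR-497-5p: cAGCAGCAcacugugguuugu
hsa-miR-6838-5p: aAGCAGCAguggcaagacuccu

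The first of these lies at chrX:134546680-134546701 on the minus strand, within MIR424. Outside the seed the family diverges: compared base by base without gaps, miR-15b-5p shares 9 of the 14 following positions with miR-424-5p, miR-16-5p 5 and miR-6838-5p 2. The other arm of the same precursor, which is shown because a precursor can release either arm, lies at chrX:134546644-134546664 on the minus strand and has a different seed.

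hsa-miR-424-3p: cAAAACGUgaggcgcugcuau

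Sites for these seeds in the transcripts were not analysed here.

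In cells with pre-miR-424, the 3 D cyclins, CCNE1, CDC25A, CDK6 and CDK4 had lower mRNA signals than in control cells on both arrays, while CCNE2, CDK2 and RB1 did not. The mean log2 ratio of pre-miR-424 over control ranged from −0.77 for CCNE1 to −0.34 for CDK4 among the 7 lower genes, and from 0.07 to 0.17 among the other 3. Of the 10 genes, CCNE1 and CCND2 reached 1.5-fold on both arrays. The margin was narrow: with normal labelling CCND2 passed at 66.4% of control, and CDK6 missed at 66.9%. In RNA from whole cultures, fewer cells in a phase of the cycle and less RNA per cell cannot be told apart. The log2 ratio is used throughout, so that a negative value is a lower signal with pre-miR-424, and the SD given with a mean is that between the 2 arrays.

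**Figure D1:**
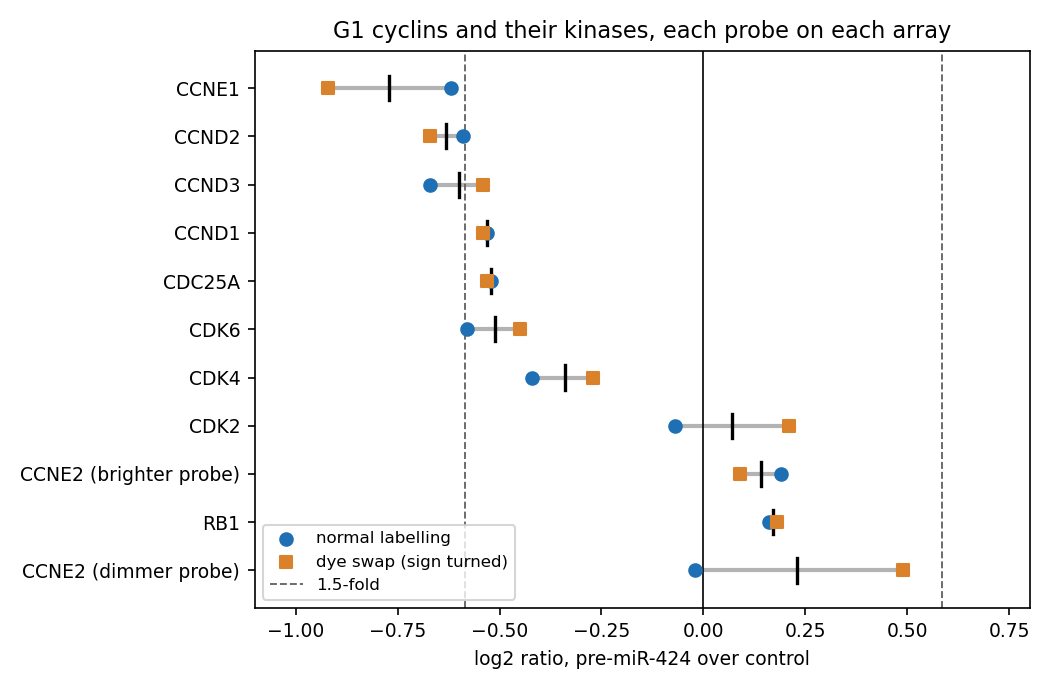
Log2 ratio of pre-miR-424 over control (horizontal axis) for the 11 probes of the 10 genes, with the array with normal labelling as circles, the dye swap as squares and their mean as a bar. Dashed lines mark 1.5-fold. Both symbols of CCNE1 and CCND2 lie beyond the left line, those of CCND3, CCND1, CDC25A, CDK6 and CDK4 lie left of 0, and those of CDK2 lie on either side of it.

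The D cyclins were the first group examined. CCND1 (NM_053056), the cyclin that growth factor signalling induces in most epithelia, gave a normalised intensity of 8237 in control RNA and 5709 in pre-miR-424 RNA on the array with normal labelling. On the dye swap the intensities were 8319 and 5741. Both arrays thus placed the pre-miR-424 signal at about the same share of control, 69.3% and 69.0%. The log2 ratios were −0.53 and −0.54 (mean −0.53, SD 0.0044).

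CCND1 shows what the normalization removed. Before it, the median pixel signals of pre-miR-424 and control RNA were 7221 and 6675 on the array with normal labelling, and 4017 and 11794 on the dye swap. The Cy5 signal was thus the higher one on both arrays, whichever RNA carried it. A loess fit of the ratios on intensity takes out such a trend within an array. The dye component, calculated as the difference between the turned ratios divided by 2, was 0.00 for CCND1 after the fit.

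CCND2 (NM_001759), another D cyclin, gave 40592 in control and 26934 in pre-miR-424 RNA with normal labelling, and 33563 and 21095 on the swap. Its log2 ratios were −0.59 and −0.67 (mean −0.63, SD 0.055), so that it fell to 64.6% of control. CCND3 (NM_001760), the third D cyclin, gave 12897 and 8104 on the first array and 12074 and 8328 on the swap. Its log2 ratios of −0.67 and −0.54 (mean −0.60, SD 0.095) put it beyond 1.5-fold on the array with normal labelling alone. For each of the 3 genes, both pre-miR-424 values lay below both control values.

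The 3 D cyclins moved by similar amounts. CCND2 was lower than CCND1 by 0.06 and 0.13 on the arrays, a mean difference of 0.10 (SD 0.05). CCND3 differed from CCND1 by 0.14 on one array and by 0.00 on the other. Between CCND2 and CCND3 the order changed with the array, with a mean difference of 0.03 and an SD of 0.15.

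The kinases that pair with the D cyclins were lower as well. CDK6 (NM_001259) gave 13542 in control and 9054 in pre-miR-424 RNA with normal labelling, and 13210 and 9683 on the swap. Its log2 ratios were −0.58 and −0.45 (mean −0.51, SD 0.094), which is 1.43-fold lower. CDK4 (NM_000075) gave 23428 and 17499 on the first array and 20645 and 17138 on the swap, with log2 ratios of −0.42 and −0.27 (mean −0.34, SD 0.11). The ratio of CDK4 was nearer to 0 than that of CDK6 on both arrays, by 0.16 and 0.18.

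The E cyclins parted. CCNE1 (NM_001238), cyclin E1, had the largest change of the 10 genes, with intensities of 2667 in control and 1732 in pre-miR-424 RNA on the array with normal labelling and of 2752 and 1457 on the swap. Its log2 ratios were −0.62 and −0.92 (mean −0.77, SD 0.21), so that 58.6% of the control signal was left, a 1.71-fold fall. Both pre-miR-424 values lay below both control values.

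CCNE2 (NM_057749), cyclin E2, which activates the same kinase, was not lower at either of its probes. The brighter one gave 1502 in control and 1710 in pre-miR-424 RNA with normal labelling and 1477 and 1572 on the swap, with log2 ratios of 0.19 and 0.09 (mean 0.14, SD 0.069). The dimmer one, printed as a single spot, gave −0.02 and 0.49 (mean 0.23, SD 0.36), so its arrays disagreed in sign. The log2 ratio of CCNE1 minus that of CCNE2 at the brighter probe was −0.81 and −1.01 on the arrays (mean −0.91, SD 0.14).

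CDK2 (NM_001798), the partner of both E cyclins, gave 8013 in control and 7625 in pre-miR-424 RNA with normal labelling, and 7332 and 8483 on the swap. Its log2 ratios of −0.07 and 0.21 had opposite signs (mean 0.07, SD 0.20), and the control values overlapped the pre-miR-424 values. The 2 kinases of the D cyclins lay below CDK2 on both arrays, CDK6 by 0.51 and 0.66 and CDK4 by 0.35 and 0.48.

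CDC25A (NM_001789), the phosphatase that activates CDK2, gave 2104 in control and 1466 in pre-miR-424 RNA with normal labelling, and 2168 and 1505 on the swap. Its log2 ratios were −0.52 and −0.53 (mean −0.52, SD 0.0031), or 69.5% of control, the closest match between the arrays among the 10 genes. RB1 (NM_000321), whose protein the G1 kinases phosphorylate, gave 3185 in control and 3570 in pre-miR-424 RNA on the first array and 3410 and 3872 on the swap. Its log2 ratios of 0.16 and 0.18 (mean 0.17, SD 0.013) had the opposite sign to those of CCND1, CCND2, CCND3 and CCNE1, and the same sign as those of CCNE2 at its brighter probe.

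**Figure D2:**
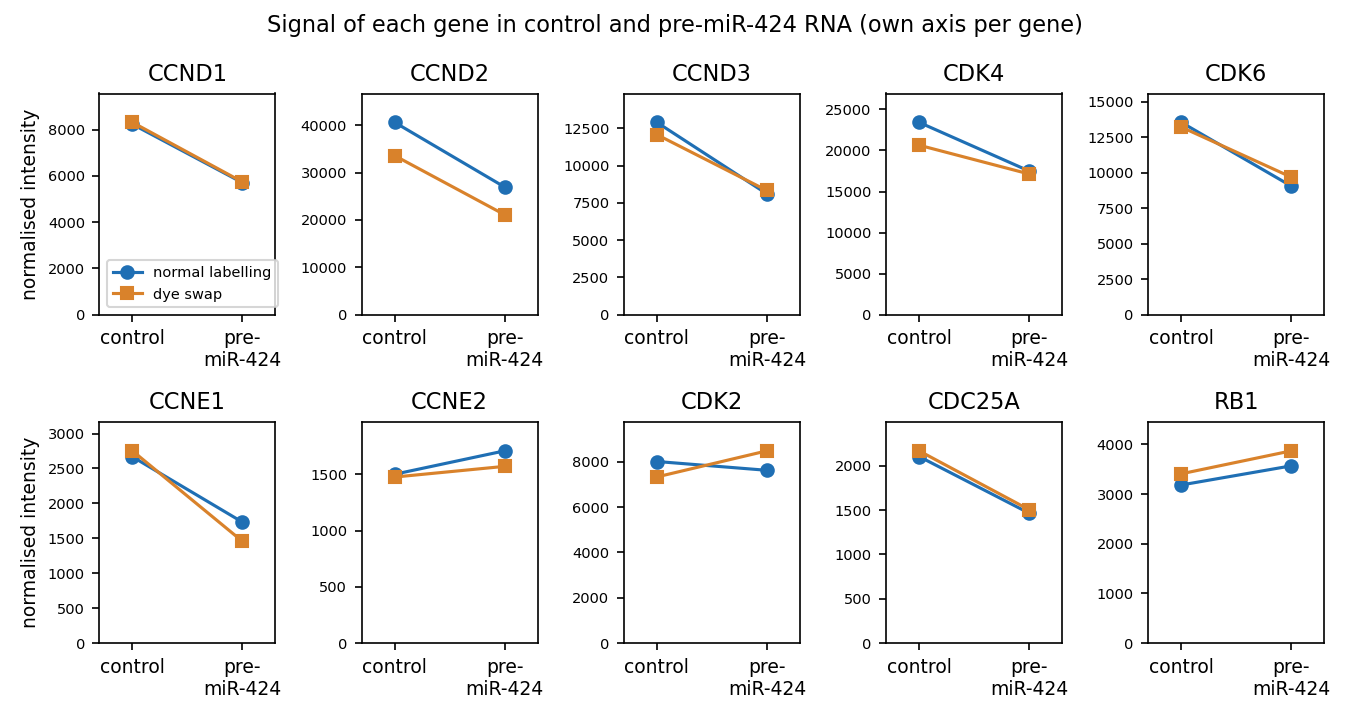
Normalised intensity (vertical axis, linear and from 0, with its own range for each gene) in control and pre-miR-424 RNA for the 10 genes, by their brightest probe, with circles for normal labelling and squares for the dye swap. Both lines go down for CCND1, CCND2, CCND3, CDK4, CDK6, CCNE1 and CDC25A, both go up slightly for CCNE2 and RB1, and the lines of CDK2 cross. Levels of different probes cannot be compared.

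The probes of 3 of the genes were printed as 10 spots on each array, which gives a spread within an array. For CCND1, 1 spot on each array was marked as an outlier and dropped, and the other 9 ranged from −0.61 to −0.41 with normal labelling (median −0.55) and from −0.62 to −0.42 on the swap (median −0.51). No spot of CCND1 reached 0 on either array, and the dropped spots, at −0.56 and −0.52, lay inside these ranges. The spots of CDK2 ranged from −0.13 to 0.01 with normal labelling and from 0.12 to 0.32 on the swap. They thus separated the arrays of CDK2 completely, and the disagreement between its arrays was larger than the spread of spots within them.

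For RB1, 7 spots were kept on the array with normal labelling, between 0.03 and 0.33, and 10 on the swap, between −0.01 and 0.31. All 7 of the first and 9 of the 10 on the swap were above 0. The 3 dropped spots of RB1 lay between 0.02 and 0.13, and with them kept the ratio with normal labelling was 0.14. The SD between spots was 0.07 on both arrays for CCND1 and at most 0.11 for the 3 genes, against a median of 0.06 on each array over the measured probes with 10 kept spots. Spots of a probe share the labelled RNA, so their spread is that of printing and hybridisation within an array.

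**Figure D3:**
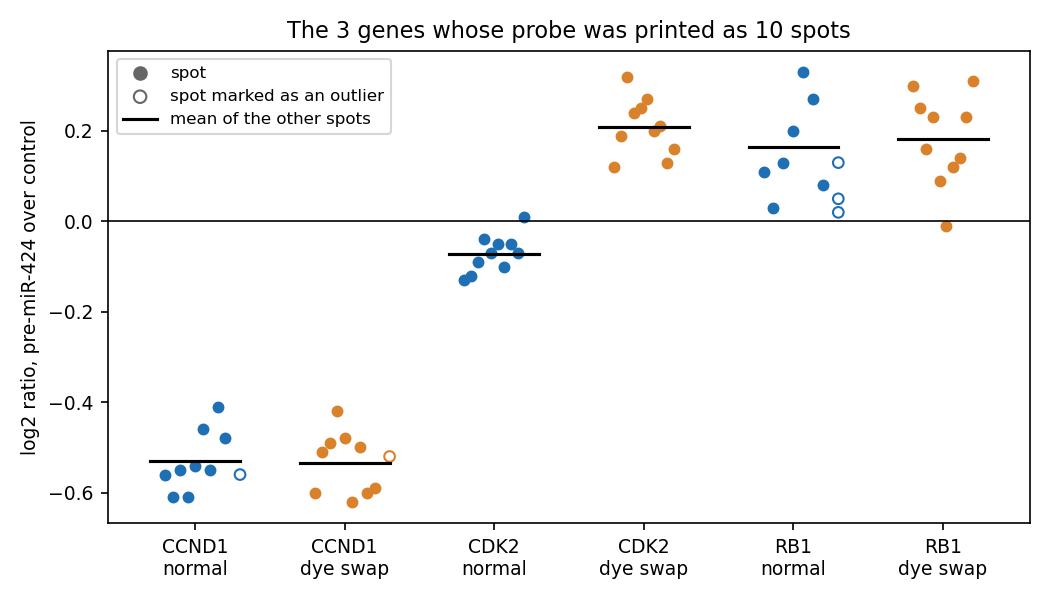
Log2 ratio of pre-miR-424 over control (vertical axis) of every spot of CCND1, CDK2 and RB1 on the array with normal labelling and on the dye swap, with spots marked as outliers as open circles and the mean of the other spots as a bar. The spots of CCND1 lie between −0.62 and −0.41 on both arrays, those of CDK2 lie around −0.07 on one and 0.20 on the other, and those of RB1 lie mostly above 0.

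To place these values, the same rules were applied to the 14050 measured genes, each by its brightest probe. Because the 10 genes were chosen with earlier results of these data known, the comparison is a description and not an independent contrast. Over all of them the SD of the log2 ratios was 0.24 with normal labelling and 0.27 on the swap. The dye component, which holds dye effects of single probes as well as noise between the arrays, had an SD of 0.16. For 9 of the 10 genes, by their brightest probes, the mean ratio was larger in size than the SD between the arrays, and for CDK2 it was not. At the dimmer probe of CCNE2 it was not either (mean 0.23, SD 0.36). The share of all measured genes passing this rule was not computed, so the count does not set the 10 genes apart.

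At 1.5-fold, 2 of the 10 genes were lower on both arrays, against 56 of all measured genes (0.399%), and none of the 10 was higher, against 87 (0.619%). At 2-fold none of the 10 was lower, and 5 of all genes were (0.0356%). At 1.3-fold, a threshold chosen after the values were seen, CCND1, CCND2, CCND3, CCNE1, CDK6 and CDC25A were lower on both arrays, 6 of 10 against 1.59% of all genes, and again none was higher, against 1.71%. A threshold of 1.25-fold, tried before that of 1.3-fold, called the same 6 of the 10 genes lower and none higher, against 2.31% and 2.41% of all genes. With no threshold, 7 of the 10 were lower on both arrays and 2 higher, CCNE2 and RB1, where 26.7% and 26.8% of all measured genes were. The median of the 10 genes was −0.53 with normal labelling and −0.49 on the swap, and that of all genes was 0.00 on each.

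Ordered from the lowest mean ratio, CCNE1 stood at place 29 of 14050 genes, CCND2 at 81, CCND3 at 104, CCND1 at 159, CDC25A at 164, CDK6 at 170 and CDK4 at 516. Counted from the highest, RB1 was at place 2012, CCNE2 at 2630 and CDK2 at 4444. Within the set, the order of neighbours was the same on both arrays between CCNE1 and CCND2, between CDK6 and CDK4 and between CDK4 and CDK2, with gaps of 0.14, 0.17 and 0.41. It was also the same from CCND3 to CCND1 and from CCND1 to CDC25A, with gaps of 0.07 and 0.01. These orders include near ties, since CCND3 and CCND1 differed by 0.00 on the swap. In contrast, CCND2 and CCND3, CDC25A and CDK6, CDK2 and CCNE2, and CCNE2 and RB1 changed places between the arrays.

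**Figure D4:**
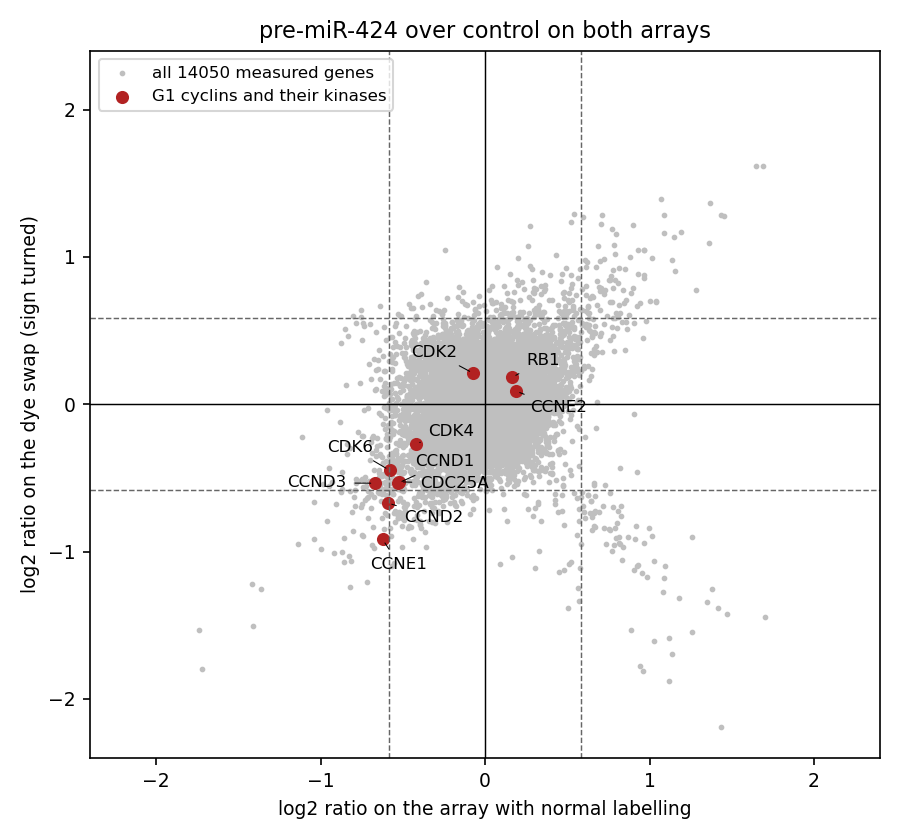
Log2 ratio on the array with normal labelling (horizontal axis) against that on the dye swap with its sign turned (vertical axis) for the 14050 measured genes in grey and the 10 G1 genes in red. Dashed lines mark 1.5-fold. CCND1, CCND2, CCND3, CCNE1, CDK6 and CDC25A lie at the lower left of the grey cloud, CDK4 lies nearer the centre, and CDK2, CCNE2 and RB1 lie inside it.

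The genes with the pattern most like that of CCNE1, by the smallest Euclidean distance over the ratios of both arrays, were UBE2Q1 (NM_017582), with −0.63 and −0.92, PPP1R11 (NM_021959), with −0.58 and −0.89, and TRMT2B (NM_024917), with −0.69 and −0.95. With 2 arrays such likeness rests on 2 values a gene.

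By their brightest probes, the dye component of the 10 genes was between −0.14 (CDK2) and 0.15 (CCNE1). For each of the 7 lower genes it was smaller in size than the mean ratio. This follows from their ratios having the same sign on both arrays and adds nothing to it. At the dimmer probe of CCNE2 the dye component was −0.25, with a mean ratio of 0.23. With median centring of the arrays instead of loess, the median of all measured genes moved to 0.13 with normal labelling and −0.23 on the swap. Relative to this shift, CCNE1 gave −0.61 and −0.95, CCND2 −0.29 and −0.93, and CDK4 −0.20 and −0.48. The 7 genes stayed lower on both arrays, but before the shift is taken off none was 1.5-fold lower on both. With normal labelling the ratio of CCND2 was then −0.16 and that of CCNE1 −0.48. RB1 and CCNE2 were then below 0 on the swap, at −0.10 and −0.16, and above the median of all genes on both arrays, RB1 by 0.19 and 0.12 and CCNE2 by 0.19 and 0.07.

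Around these 10 genes, 6 lists of other genes of the pathway were examined, of which 79 of 80 genes were measured. The lists, too, were chosen with earlier results of these data known. By the brightest probe of each, 1 of the 79 genes was 1.5-fold lower on both arrays (0.399% of all measured genes were) and none 1.5-fold higher (0.619%). By any measured probe, a rule for which the share of all genes was not computed, 2 were 1.5-fold lower, FOSL1 and CDK8. At 1.3-fold, 3 were lower (CDK8, FOSL1 and MAPK3), against 1.59% of all genes, and 2 higher (CCNG2 and CTNNB1), against 1.71%. At 1.25-fold, against 2.31% of all genes, GSK3B was also lower. Without a threshold 30 of the 79 were lower on both arrays and 27 higher, against 26.7% and 26.8% of all genes, and their median was −0.01, against −0.52 for the mean ratios of the 10 G1 genes.

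The CDK inhibitors, which bind and block the G1 kinases, had 0.07 as their median (0.05 with normal labelling, −0.02 on the swap). Of the 7, 2 were lower and 2 higher on both arrays (26.7% and 26.8% of all measured genes were), and none at 1.3-fold. The lowest was CDKN1A (NM_078467), the p21 inhibitor, with −0.16 and −0.35. The highest was CDKN1B (NM_004064), the p27 inhibitor, with −0.13 and 0.35, and its other probe had a mean of −0.13. The arrays and probes of CDKN1B therefore disagreed in sign.

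Pocket proteins and E2F factors had a median of −0.01. Of the 12, 4 were lower and 5 higher on both arrays (26.7% and 26.8% of all measured genes were). None was called at 1.3-fold, where 1.59% of all measured genes were lower and 1.71% higher. E2F5 (NM_001951), a repressing E2F, gave 0.25 and 0.44, and E2F4 (NM_001950), another repressing member, −0.21 and −0.31. Of the 18 genes that E2F drives in S phase, 5 were lower and 8 higher on both arrays (26.7% and 26.8% of all measured genes were), none at 1.3-fold, and the median was 0.07 (0.04 and 0.09). CDT1 (NM_030928), which licenses replication origins, was the highest with 0.36 and 0.23, and RRM1 (NM_001033), the large subunit of ribonucleotide reductase, the lowest with −0.08 and −0.40.

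Among genes for the turnover of G1 cyclins and the activation of CDKs, 5 of 13 were lower and 2 higher on both arrays (26.7% and 26.8% of all measured genes were). Their median was −0.01, and it was −0.18 with normal labelling and 0.10 on the swap. GSK3B (NM_002093), a kinase that marks cyclin D1 for degradation, was the lowest with −0.32 and −0.33. CDC37 (NM_007065), a chaperone partner of CDK4 and other kinases, was the highest with 0.22 and 0.10. At 1.25-fold GSK3B was called lower, as were 2.31% of all measured genes, and at 1.3-fold none of the 13 was called.

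Other cyclins and CDKs had a median of −0.06, with 8 of 16 measured genes lower and 6 higher on both arrays (26.7% and 26.8% of all measured genes were). CDK8 (NM_001260), the kinase of the Mediator complex, gave −0.58 and −0.53, and its other probe was beyond 1.5-fold on both arrays with −0.74 and −0.67. CCNG2 (NM_004354), an atypical cyclin linked to cell cycle arrest, gave 0.47 and 0.55, and its other probes had means of 0.14 and 0.45. CCNA1 was not measured. Of the A, B and F cyclins, which act after G1, CCNA2 gave 0.01 and 0.14, CCNB1 −0.08 and −0.12, CCNB2 0.16 and 0.13 and CCNF −0.29 and −0.32. CCNG1 was lower than these, with −0.64 and −0.27 and a mean of −0.36 at its other probe.

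Upstream of the D cyclins, where growth signals reach their promoters, the median was −0.09 (−0.08 and 0.02). On both arrays, 6 of 13 genes were lower and 4 higher (26.7% and 26.8% of all measured genes were). FOSL1 (NM_005438), a subunit of the transcription factor AP-1, fell with −0.63 and −0.65 (mean −0.64, SD 0.014) and was the gene at 1.5-fold among the 79 by its brightest probe. MAPK3 (NM_002746), the kinase ERK1, was 1.3-fold lower with −0.49 and −0.58, whereas CTNNB1 (NM_001904), beta-catenin, was higher with 0.53 and 0.45 and a mean of 0.57 at its other probe. MYC (NM_002467) gave −0.13 and 0.10.

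**Figure D5:**
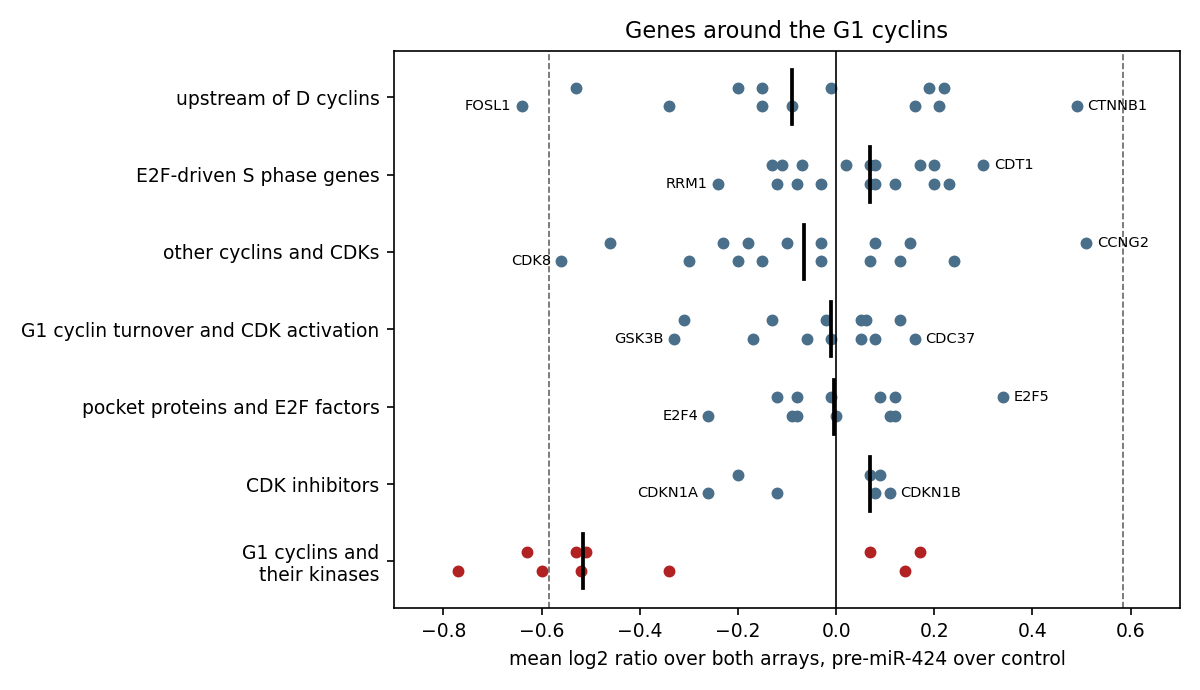
Mean log2 ratio over both arrays (horizontal axis) of each measured gene of the G1 set (red) and of 6 lists of other pathway genes (blue), with medians as black bars, 1.5-fold as dashed lines and the lowest and highest gene of each list named. The median of the G1 set is −0.52, and those of the lists lie between −0.09 and 0.07.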

How the data were processed

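RNA of RWPE-1 cells with pre-miR-424 or control was compared on 2 two-colour arrays, a technical dye swap. The files deposited by the authors hold, from Feature Extraction 10.7.3.1 per the file headers, the median intensity of each spot and of its local background, not normalized, and a log10 ratio of the dyes that the software computed. In a further deposited table, the values are log2 ratios, for which the submitters' processing notes name limma; its scale and direction are not stated. Set against the ratios computed here, it held unturned Cy5 over Cy3 ratios (Pearson's r 0.991 and 0.988 across 42405 probes, medians 0.024 and 0.036). Flags in the deposited files, which are neither counts nor a score, mark outliers and spots well above background.

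In limma 3.58.1, run in R 4.3.3, the background of the median intensities was corrected by normexp (offset 50, all spots in the fit), since plain subtraction would leave dim probes without a logarithm. The offset draws ratios of dim probes towards 0. Control spots were left out, ratios were normalized by loess within each array and turned to pre-miR-424 over control, outlier spots were dropped singly, and the other spots of a probe were averaged. Printed intensities were scaled between arrays by Aquantile, which leaves ratios as they are. RefSeq accessions were given for 27134 probes, and 25771 of them (95.0%) led to a symbol of GRCh38.p14. The array design uses hg19, so no gene coordinates are given. For each gene the brightest measured probe was used. Genes and lists were chosen with earlier results of these data known. Named are the 10 genes, in each list those at 1.5-fold and the lowest and highest, and the 3 genes most like the one with the largest change. The thresholds of 1.25-fold and then 1.3-fold, the genes named at them, other cyclins and MYC were added after values were seen. The steps were tested on simulated data with less noise between the arrays than here and without dye effects of single probes. That test checks the computation and does not show how reliable the calls are. Tried as alternatives were median centring, an offset of 16, uncorrected signals, the software's and the authors' ratios, other filters, other treatments of outliers and probes, single arrays and other thresholds. The tables were handled in Python 3.11.15 with pandas 2.3.3 and numpy 2.4.6. Some luminal markers are not reported here.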

Additional observations from a re-analysis of the deposited data

How the results depend on the processing

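The mean ratios of the 10 genes kept their sign under every alternative run with both arrays. The median of the 10 genes was −0.58 with median centring, and ranged from −0.53 to −0.49 with single arrays. The count of genes 1.5-fold lower on both arrays, 2, became 0 with median centring, 0 at a threshold of 2-fold and 6 at one of 1.3-fold or 1.25-fold, and was 2 or 3 with single arrays. The share of all measured genes 1.5-fold lower was 0.399%, became 0.32% with median centring, and was 1.99% and 1.22% on the single arrays. Each of the other settings gave 2. Leaving out every probe with an outlier spot removed CCND1 and RB1. With median centring the list medians were 0.01 for CDK inhibitors, 0.02 for S phase genes, −0.11 for other cyclins and CDKs, −0.07 for pocket proteins and E2F factors, −0.15 upstream of the D cyclins and −0.05 for turnover and activation. The mean over probes gave −0.01 for CDK inhibitors, and leaving out probes with an outlier spot −0.13 for other cyclins and CDKs. With median centring the median of the mean ratios of all measured genes was −0.04, against 0.00 with loess. The cause of these shifts of the list medians was not tested. With single arrays, the medians ranged from −0.02 to 0.05 for CDK inhibitors, 0.04 to 0.09 for S phase genes, −0.18 to 0.10 for turnover and activation, −0.06 to −0.02 for other cyclins and CDKs, 0.00 to 0.05 for pocket proteins and E2F factors and −0.08 to 0.02 upstream of the D cyclins, so that the sign of several lists depended on the array. The mean pixel signal, planned as another foreground, was not analysed here. No paired analysis was possible because the arrays are 1 replicate, and each ratio was already taken within an array.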
